A study of Mus musculus with 2 samples.

Results

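Cholesterol handling in omental leukocytes was examined through 7 genes: Abcg1, Abca1, Hmgcs1, Sqle, Insig1, Idi1 and Scd2, of 19960 genes listed. They were chosen by symbol, with Abcg1 picked for its higher level in B2 B cells of Postn-DTR mice, so that difference is given as a description. The omentum is an abdominal fat tissue dotted with small lymphoid aggregates, the milky spots. Single-cell RNA-seq was performed on its leukocytes in 2 groups with 1 library each, both at 5 days after diphtheria toxin (DT). The first came from pooled WT mice and the second, referred to as DTR, from pooled mice carrying the diphtheria toxin receptor in the first coding exon of one Postn allele. Both groups received DT, and the Postn promoter marks a subset of fibroblastic reticular cells (FRCs), stromal cells of the milky spots, with other Postn-expressing cells also open to the toxin. The comparison asks how the levels of these genes differ in leukocytes once those stromal cells are ablated.

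Cells export surplus cholesterol through ABC transporters and import or make more of it when sterol runs low. ABCA1 and ABCG1 pass cholesterol to apolipoprotein A-I and to HDL particles, and their genes are targets of the liver X receptors (LXRs), which are activated by oxysterols. When membrane sterol falls, the transcription factor SREBP2 is released from the endoplasmic reticulum and turns on the genes for cholesterol synthesis and uptake. INSIG1 holds the SREBP complex in the endoplasmic reticulum and its gene is itself an SREBP target. HMGCS1 makes HMG-CoA early in the pathway, IDI1 isomerizes isopentenyl diphosphate, and SQLE is the epoxidase that commits squalene to sterols. SCD2 is a desaturase that makes monounsaturated fatty acids, and SCD genes respond to both LXR and SREBP1.

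The 7 genes lie on separate loci of GRCm38, the assembly that mm10 denotes. Abcg1 is at chr17:31057675-31117988 on the plus strand, Abca1 at chr4:53030787-53159895 on the minus strand and Hmgcs1 at chr13:119690379-119708260 on the plus strand. Sqle is at chr15:59315077-59331192, Insig1 at chr5:28071363-28078662, Idi1 at chr13:8885501-8892451 and Scd2 at chr19:44293674-44306864, all on the plus strand. All are annotated as protein coding, and each level counts UMIs assigned to the gene.

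Of the 7 genes, 4 had an entry in the RefSeq promoter table (GRCm38.p6): Abca1, Hmgcs1, Insig1 and Idi1, and Abcg1, Sqle and Scd2 had none. The sequences below are shown because Abca1 was higher, and Hmgcs1, Insig1 and Idi1 lower, in DTR B2 B cells. They run 5′ to 3′ on the strand of the gene and end at the base before the RefSeq start, or for Insig1 and Idi1 before the GENCODE start, which lies upstream of it, for Abca1 at chr4:53159896-53160145, for Hmgcs1 at chr13:119690101-119690350, for Insig1 at chr5:28071162-28071362 and for Idi1 at chr13:8885356-8885500. Capitals mark matches on either strand to the sterol regulatory element core TCACNCCA, the CCAAT box CCAAT and the GC box GGGCGG.
Abca1: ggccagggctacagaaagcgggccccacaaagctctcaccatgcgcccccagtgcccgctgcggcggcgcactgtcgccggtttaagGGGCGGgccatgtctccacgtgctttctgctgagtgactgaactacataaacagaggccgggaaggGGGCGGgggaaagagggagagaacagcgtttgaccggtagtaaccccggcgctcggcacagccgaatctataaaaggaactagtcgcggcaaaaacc
Hmgcs1: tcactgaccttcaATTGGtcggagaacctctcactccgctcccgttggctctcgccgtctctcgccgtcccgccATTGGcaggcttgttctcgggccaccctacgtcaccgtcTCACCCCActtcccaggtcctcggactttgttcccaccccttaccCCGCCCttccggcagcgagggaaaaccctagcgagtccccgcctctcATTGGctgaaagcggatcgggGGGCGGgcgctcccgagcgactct
Insig1: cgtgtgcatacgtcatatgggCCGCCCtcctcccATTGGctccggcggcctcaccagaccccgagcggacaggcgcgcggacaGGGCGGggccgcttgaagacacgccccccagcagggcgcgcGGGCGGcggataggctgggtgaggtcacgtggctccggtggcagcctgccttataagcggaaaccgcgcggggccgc
Idi1: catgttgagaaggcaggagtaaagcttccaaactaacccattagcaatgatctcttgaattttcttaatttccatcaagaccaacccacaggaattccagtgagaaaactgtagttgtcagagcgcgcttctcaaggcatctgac
The Hmgcs1 stretch held 1 match to the sterol regulatory element core, 3 CCAAT boxes and 2 GC boxes. The Insig1 stretch held 1 CCAAT box and 3 GC boxes, and the Abca1 stretch held 2 GC boxes and no CCAAT box. The Idi1 stretch held none of the 3 motifs, and the 2 CCAAT boxes and 1 GC box of its RefSeq entry lie past the GENCODE start. Over the 250 bases before all 32851 RefSeq starts, 3.67% held the sterol core, 33.8% a CCAAT box and 32.7% a GC box. Of 20 cholesterol synthesis genes, 15 had a promoter entry, and 14 of these held a CCAAT box, 14 a GC box and 2 the sterol core. A gene counted here when any of its entries matched, while the shares above are of single starts, so they are not directly comparable. A match is a description of the letters and not evidence of binding.

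After quality control, 8654 WT and 5727 DTR cells remained, with a median of 5635 and 8472 UMIs (unique molecular identifiers, each marking 1 captured RNA molecule) per cell. Cells were clustered without the sterol and lipid genes among the features, so the classes do not rest on the genes described here. The classes, named from marker genes and hereafter called B2, B1, plasma, T and macrophage although each is only marker-like, held 1573, 1019, 573, 3056 and 120 WT cells and 463, 460, 2053, 477 and 327 DTR cells. All 5 B cell markers stood above the other cells in the B2 and B1 clusters, 7 or 8 of 8 plasma markers in the plasma clusters, 5 to 7 of 7 in the T clusters and 13 of 13 in the macrophage cluster. The cells of B2 had a median of 4438 UMIs in WT and 3341 in DTR, so the DTR cells were the shallower. The 2 libraries shared 65 cell barcodes. With 1 library per group there was no replicate check, so no test was made and all intervals are exact 95% counting intervals of the summed UMIs, which cover counting error only. Levels are mean UMIs per 10000 UMIs of a cell, and fewer molecules per cell cannot be told apart from a shift in the rest of the cell's RNA.

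The exporters were higher in DTR than in WT in both mature B cell classes. In B2, Abcg1 was at 0.071 UMIs per 10000 in WT and 0.447 in DTR, a 6.30-fold difference (log2 2.66). These levels rest on 49 UMIs in 46 WT cells and 76 UMIs in 67 DTR cells, with at most 2 and 3 UMIs in a single cell. The log2 ratio of summed UMIs was 2.77, with a counting interval of 2.23 to 3.32. The difference was not carried by a few cells with many UMIs. Most of the 1573 WT and 463 DTR cells held no Abcg1 UMI, so its spread over cells is not resolved. Abca1 in B2 was at 0.302 in WT and 0.985 in DTR, 3.26-fold higher, from 216 and 151 UMIs, and the interval of its summed log2 ratio ran from 1.31 to 1.92.

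B1 B cells, the innate-like B cells of body cavities, showed both exporters higher as well. Abcg1 was at 0.130 in WT and 0.489 in DTR (log2 1.92), from 129 and 174 UMIs, and Abca1 was at 0.261 and 0.745 (log2 1.52), from 218 and 226 UMIs. The counting intervals of the summed ratios were 1.61 to 2.29 for Abcg1 and 1.29 to 1.84 for Abca1. The B2 and B1 ratios of Abcg1 have overlapping intervals, and whether they differ was not tested.

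The genes that act in cholesterol synthesis and in its feedback were lower in DTR B2 cells. Idi1 was at 0.265 in WT and 0.045 in DTR, 5.91-fold lower (log2 -2.56), from 204 and 11 UMIs. Insig1 was at 0.370 and 0.104 (log2 -1.83), from 287 and 15 UMIs. Sqle was at 0.124 and 0.040 (log2 -1.65), from 104 and 7 UMIs. Hmgcs1 was at 0.335 and 0.154 (log2 -1.12), from 265 and 26 UMIs. The summed intervals of all 4 lay below 0, from -3.10 to -1.21 for Idi1, -2.98 to -1.38 for Insig1, -3.11 to -0.67 for Sqle and -1.86 to -0.63 for Hmgcs1. The median log2 ratio of the 4 genes was -1.74.

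The same 4 genes were lower in B1, with Insig1 by the least. Sqle was at 0.103 in WT and 0.022 in DTR (log2 -2.25), from 93 and 11 UMIs. Idi1 was at 0.194 and 0.057 (log2 -1.78), from 175 and 19 UMIs, and Hmgcs1 was at 0.219 and 0.098 (log2 -1.15), from 206 and 32 UMIs. Insig1 was at 0.150 and 0.099 (log2 -0.61), from 146 and 31 UMIs, short of 2-fold.

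Scd2 stood with the exporters in B2. Its level was 0.057 in WT and 0.143 in DTR (log2 1.32), from 48 and 28 UMIs, with a summed interval of 0.63 to 2.06. In B1 it was at 0.162 and 0.202 (log2 0.32), from 147 and 76 UMIs. With 76 UMIs over both libraries of B2, Scd2 had the fewest of the 7 genes there and lay under the minimum used for calls.

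**Figure D1:**
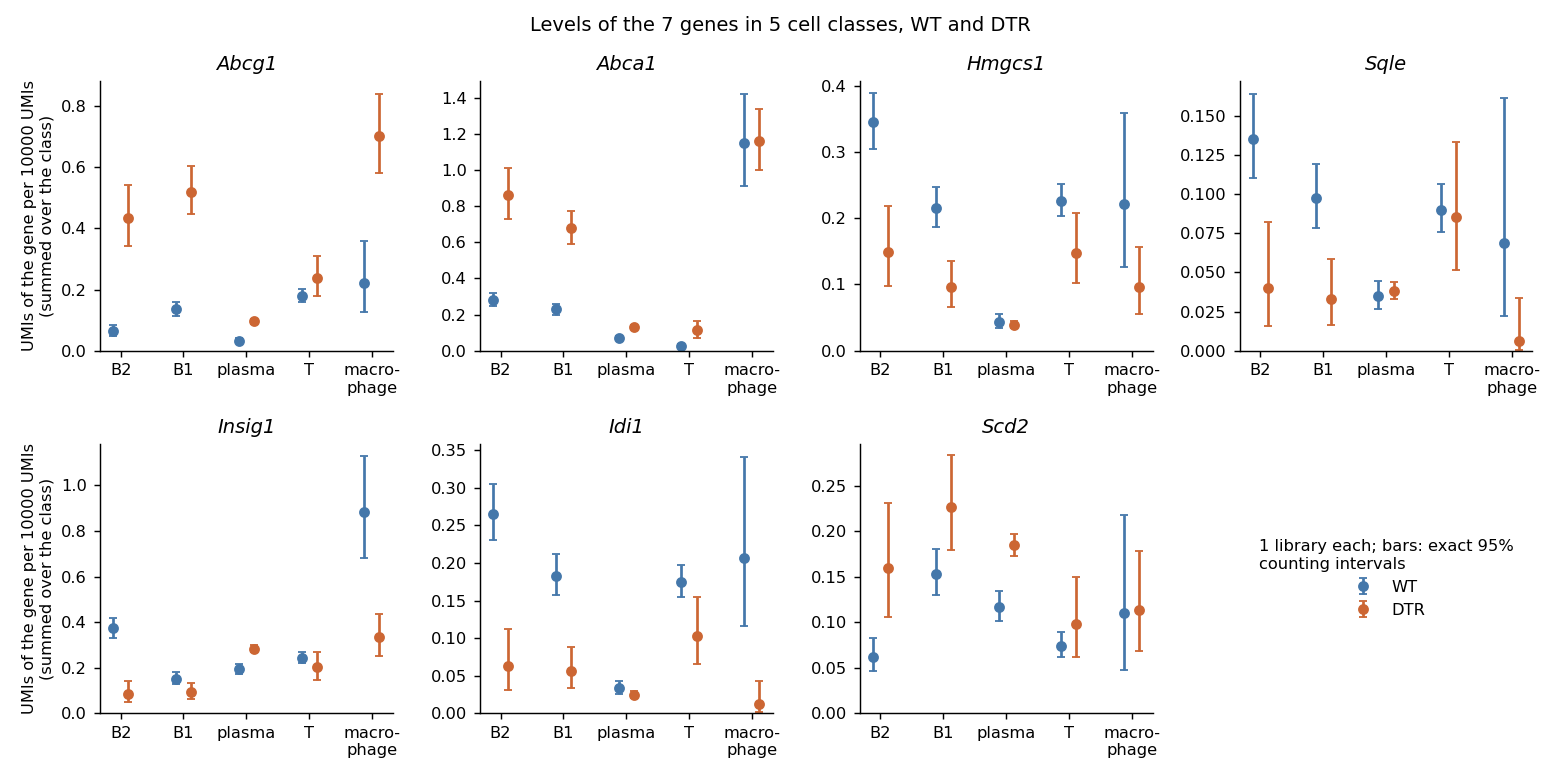
UMIs of each gene per 10000 UMIs, summed over all cells of a class, on a linear y axis for B2, B1, plasma, T and macrophage cells. Blue points are WT and orange points DTR, 1 library each, with exact 95% counting intervals as bars; in B2 and B1 the bars of the libraries are apart for Abcg1, Abca1, Hmgcs1, Sqle and Idi1.

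The members were set beside all genes. A gene was called when it had at least 100 UMIs over both libraries of a class and a ratio of 2-fold or more, with 0.01 UMIs per 10000 added to both levels. In B2, 7350 genes had enough UMIs, and 1.01% were called higher and 1.46% lower in DTR. Of the 6 members with enough UMIs, 2 were called higher (Abcg1 and Abca1) and 4 lower (Idi1, Insig1, Sqle and Hmgcs1), a count read as description because Abcg1 was chosen on this contrast. Only 6 genes had a higher ratio than Abcg1, and 12 a lower one than Idi1. In B1, where 1.68% of 7931 genes were called higher and 1.37% lower, 2 of 7 members were higher (Abcg1 and Abca1) and 3 lower (Sqle, Idi1 and Hmgcs1). Insig1 and Scd2 in B1 lay inside the 2-fold limits, at -0.56 and 0.30 with the constant added. Hmgcs1 in B2 was close to the limit, at -1.07, and with cells thinned to 1000 UMIs its log2 ratio was -0.95 in B2 and -0.70 in B1, both under 2-fold. Sqle in B1 was at -0.67 with gates on marker UMIs in place of clusters, also under 2-fold.

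**Figure D2:**
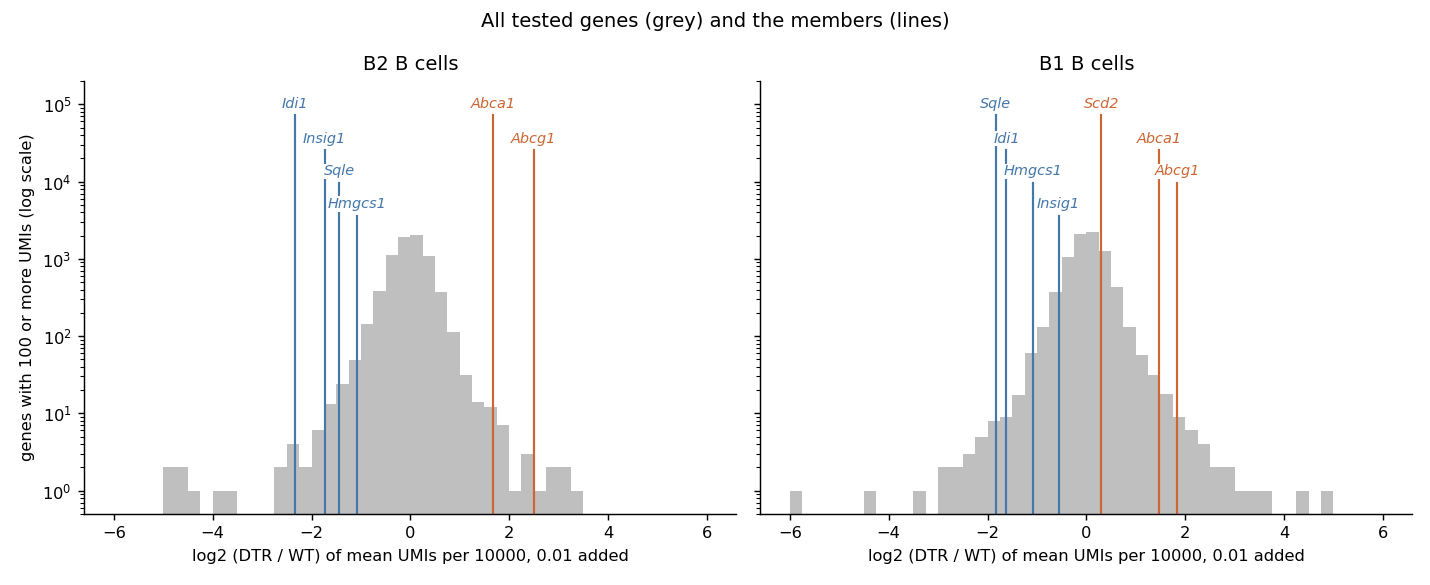
Number of genes with at least 100 UMIs, on a log y axis, by log2 ratio of DTR over WT on the x axis, for B2 (left) and B1 (right). Grey bars are all tested genes and lines the members; in B2 Abcg1 stands at 2.50 and Idi1 at -2.33 on this scale, while 7350 tested genes have a median near 0.

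The wider sterol genes lay in the directions of the members in B2. Of 12 cholesterol synthesis genes with enough UMIs, of 20 in the list, 8 were called lower and none higher. Over all 7350 tested genes, 1.46% were called lower and 1.01% higher. The median log2 ratio of the 12 was -1.27, beside 0.0011 over all tested genes. Fdps, which makes farnesyl diphosphate, was at 0.495 in WT and 0.123 in DTR, and Cyp51, the lanosterol demethylase, at 0.414 and 0.123. The list includes Hmgcs1, Idi1 and Sqle, so its count is not independent of theirs.

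Genes of sterol sensing and uptake were mostly lower in DTR B2 cells where they were called. Srebf2, which encodes SREBP2, was at 1.69 in WT and 0.618 in DTR B2 cells (log2 -1.45), from 1303 and 110 UMIs, and at 1.31 and 0.698 in B1 (log2 -0.91), from 1236 and 234 UMIs. Of 10 genes of this list with enough UMIs in B2, 4 were called lower, Insig1, Stard4 and Srebf2 among them, and 1 higher (Mylip). Over all tested genes of B2, 1.46% were called lower and 1.01% higher. Mylip was called higher in B1 as well.

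Mylip, an LXR target that encodes a ubiquitin ligase, was at 0.578 in WT and 1.38 in DTR B2 cells (log2 1.26), and at 0.325 and 0.910 in B1 (log2 1.48). Of 10 LXR receptors and targets with enough UMIs in B2, 4 were called higher (Abcg1, Apoe, Abca1 and Mylip) and none lower, with a median of 0.46. In B1 the same 4 of 11 were called higher, none lower, with a median of 0.61 beside 0.02 over all tested genes. Over all tested genes, 1.01% were called higher and 1.46% lower in B2, and 1.68% and 1.37% in B1. The list includes Abcg1, picked for its higher level in DTR B2 cells, and Abca1, so its counts are not independent of the members. Mylip is counted in the list of sensing and uptake as well. Nr1h2, the gene for LXR beta, was at 0.622 in WT and 0.760 in DTR B2 cells (log2 0.29), and Nr1h3, the gene for LXR alpha, had 1 UMI in each library there. Scd1 was at 3.18 and 4.40 (log2 0.47).

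Apoe, the apolipoprotein that carries exported cholesterol, was at 1.15 in WT and 4.73 in DTR in B2 and at 1.85 and 6.70 in B1. Macrophages held it at 145 in WT and 223 in DTR, and the part of their free RNA in the B cell values was not tested. For the members, the markers of other cells were set beside the ratios. The summed level of 13 macrophage markers in B2 was 0.348 in WT and 0.591 in DTR, with 3 and 5 of them at 0, against 338 and 218 in the macrophages themselves. Abcg1 in DTR was at 0.447 in B2 and 0.741 in macrophages. In B1 the summed macrophage markers were lower in DTR, at 0.466 in WT and 0.372 in DTR. Neutrophil markers, 10 in number, summed to 0.463 in WT and 1.64 in DTR B2 cells and to 0.262 and 0.819 in B1, and their part was not tested.

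**Figure D3:**
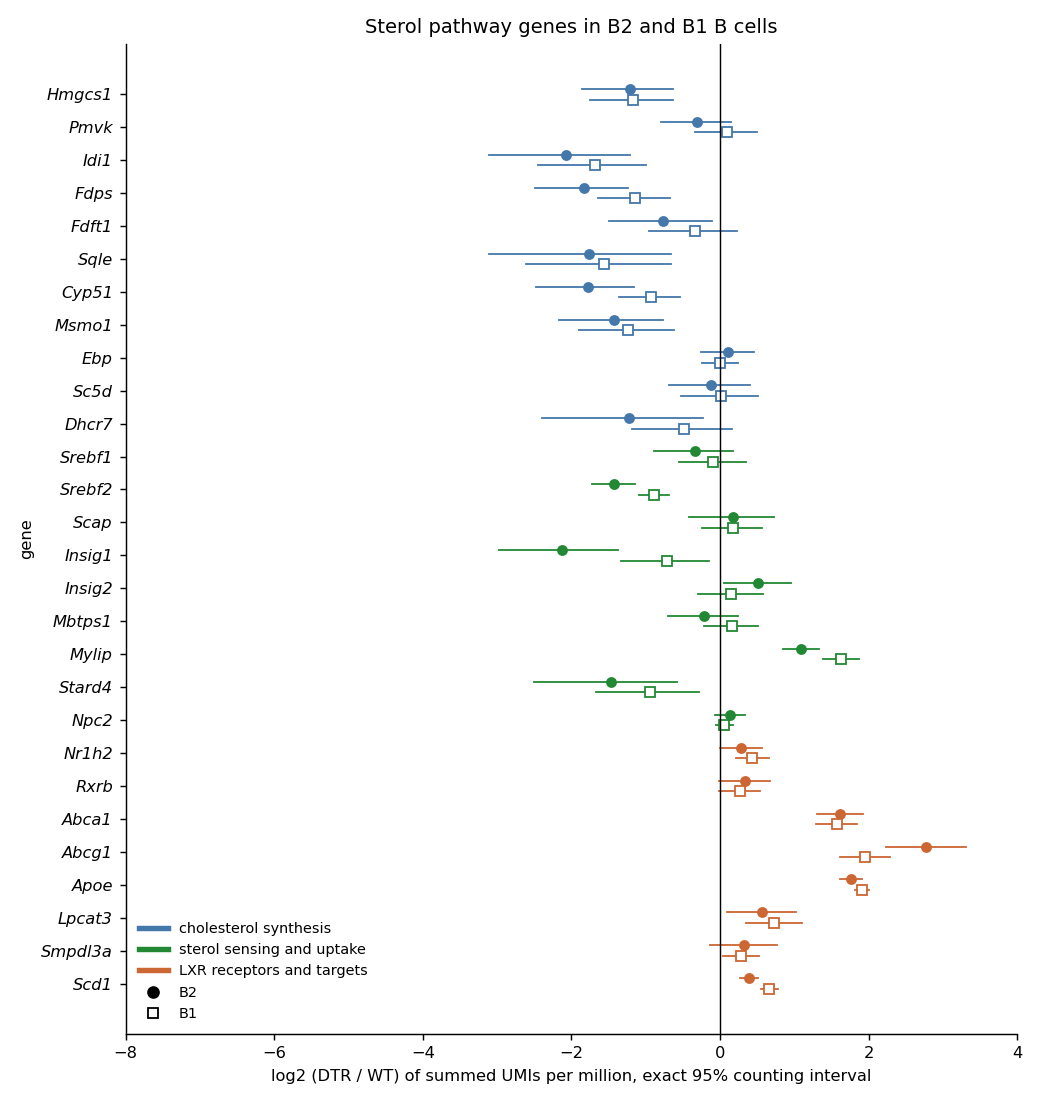
Log2 ratio of DTR over WT of summed UMIs, scaled to the class total (x axis), with exact 95% counting intervals for named sterol list genes with at least 100 UMIs in B2 (rows), filled circles for B2 and open squares for B1. Blue is cholesterol synthesis, green sensing and uptake and orange LXR receptors and targets; in both classes Hmgcs1, Idi1 and Sqle lie to the left of 0, and Abcg1, Abca1, Apoe and Mylip to the right.

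At a higher clustering resolution, 3 clusters were named B2, and together they held 1790 WT and 517 DTR cells. They reach beyond the 1573 and 463 cells of the class above, while B1 held 808 and 407 cells at that resolution. The clusters had 653 WT and 381 DTR cells, 830 and 55 cells, and 307 and 81 cells. Abcg1 had a log2 ratio of 2.91, 1.96 and 1.81 in these, and Abca1 1.99, 1.05 and 1.07. Idi1 was at -2.74, -2.10 and -2.23 and Insig1 at -1.58, -2.10 and -1.43, but in the cluster with 55 DTR cells they rest on 1 and 2 DTR UMIs. In that cluster the summed interval of Hmgcs1 ran from -2.92 to 0.37 and Sqle had 56 and 0 UMIs. In the cluster with 81 DTR cells, Scd2 was at 0.28, with a summed interval of -1.10 to 1.09, and the interval of Sqle ran from -2.60 to 0.45. Abcg1 and Abca1 had summed intervals above 0 in all 3 clusters, and Idi1 and Insig1 below 0. The clusters are parts of the same libraries and not replicates, and Abcg1 was picked on this contrast, so these values are descriptions.

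Plasma cells, which secrete antibody, had the most UMIs of the 5 classes, with a median of 28714 UMIs per cell in WT and 23266 in DTR. Abcg1 was at 0.031 in WT and 0.099 in DTR (log2 1.68), from 55 and 482 UMIs, and Abca1 at 0.079 and 0.175 (log2 1.14), from 123 and 669 UMIs. Scd2 was at 0.110 and 0.221 (log2 1.01), from 205 and 927 UMIs. Insig1 was higher, not lower, at 0.199 and 0.315 (log2 0.66), from 341 and 1423 UMIs. Hmgcs1, Sqle and Idi1 had log2 ratios of 0.34, 0.16 and -0.28, and their summed intervals all included 0. Among 9623 tested genes 3.07% were called higher and 4.36% lower, and of the 7 members 2 were called higher (Abcg1 and Abca1) and none lower. Abca1 was under 2-fold with summed UMIs, at 0.93, with median-of-ratios scaling, at 0.94, with at least 500 genes per cell, at 0.90, and with at most 10% mitochondrial UMIs, at 0.97. Abcg1 was under 2-fold when cells were thinned to 1000 UMIs, at 0.83.

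The plasma class joined clusters that the libraries filled unequally, and the clusters differed. The largest, with 390 WT and 940 DTR cells, had Abcg1 at 0.037 in WT and 0.152 in DTR (log2 2.05) and Abca1 at 0.076 and 0.200 (log2 1.39). In that cluster Sqle was at 0.024 and 0.009 (log2 -1.39), Idi1 at 0.023 and 0.012 (log2 -0.92) and Hmgcs1 at 0.037 and 0.025 (log2 -0.59), each with a summed interval below 0. Insig1 was at 0.148 and 0.174 there (log2 0.23). In the next cluster, with 68 WT and 665 DTR cells, Insig1 stood higher in both libraries, at 0.303 and 0.410, and Abca1 was at 0.085 and 0.064. Higher exporters and lower synthesis genes thus stood together in the largest cluster, and the difference between clusters was not tested.

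**Figure D4:**
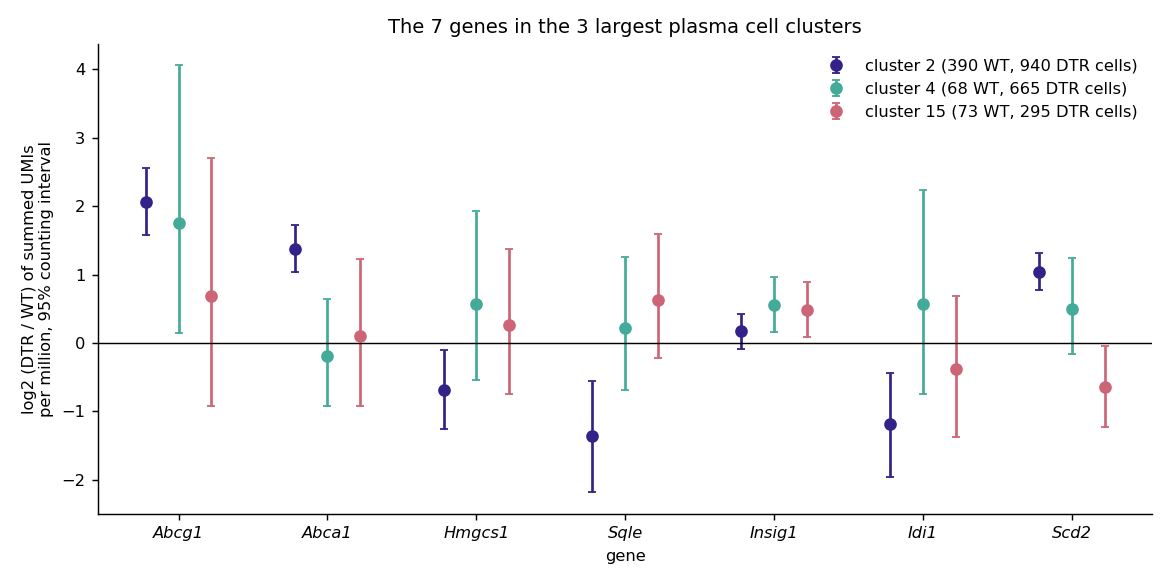
Log2 ratio of DTR over WT of summed UMIs, scaled to the cluster total (y axis), for the 7 genes (x axis) in the 3 plasma cell clusters with the most cells, with exact 95% counting intervals. In the cluster of 390 WT and 940 DTR cells Abcg1, Abca1 and Scd2 lie above 0 and Hmgcs1, Sqle and Idi1 below 0; in the others most intervals include 0.

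Other lipid genes of the plasma class were called for desaturation and sterol handling. Fads2, a fatty acid desaturase, was at 0.033 in WT and 0.280 in DTR (log2 3.10), and Scd1 at 0.079 and 0.193 (log2 1.29). Fads2 was among the 10 leading genes of the plasma cluster with 73 WT and 295 DTR cells. Gpr183, the receptor for oxysterols, was at 0.364 and 0.072 (log2 -2.33) and Arl4c at 0.043 and 0.005 (log2 -3.22). Arl4c is in the list of LXR receptors and targets. Of 12 genes of that list tested in plasma cells, 3 were called higher (Abcg1, Scd1 and Abca1) and 1 lower. Over all sterol and lipid lists, 4 of 50 genes were called higher and 3 lower, beside 3.07% and 4.36% of all tested genes. Between WT and DTR plasma cells, summed T cell markers went from 1.29 to 0.414, neutrophil markers from 1.31 to 4.46 and plasma markers from 500 to 336, and their part in these values was not tested. The 17 synthesis genes tested in plasma cells had a median of 0.13, and none was called higher and 1 lower.

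In T cells no member with enough UMIs was 2-fold apart. Abcg1 was at 0.198 in WT and 0.254 in DTR (log2 0.36), from 278 and 53 UMIs, with a summed interval of -0.05 to 0.83. Abca1, under the minimum for a call, was at 0.028 and 0.135 (log2 2.27), from 41 and 25 UMIs, with a summed interval of 1.30 to 2.83. Hmgcs1, Sqle, Insig1 and Idi1 had log2 ratios of -0.35, 0.17, -0.08 and -0.73, and Scd2 0.55. The summed intervals of Hmgcs1, -1.17 to -0.09, and of Idi1, -1.44 to -0.15, lay below 0. Of the 6 members with enough UMIs none was called in either direction, where 1.35% of 9045 genes were called higher and 1.48% lower. Among T cell clusters with at least 50 cells in each library, Abcg1 ranged from a log2 ratio of -0.46 in gamma-delta T cells, from 43 and 5 UMIs, to 1.08 in regulatory T cells, from 41 and 16 UMIs. Dhcr7, an enzyme late in cholesterol synthesis, was lower in DTR T cells, at 0.131 and 0.061 (log2 -1.12). Elovl6, which lengthens fatty acids, was higher, at 0.105 and 0.423 (log2 2.01). Of 19 synthesis genes tested in T cells, 1 (Dhcr7) was called lower and none higher. Over all sterol and lipid lists, 1 of 52 genes was called higher and 2 lower, beside 1.35% and 1.48% of all tested genes. Between WT and DTR T cells, summed plasma markers went from 2.39 to 4.30 and neutrophil markers from 0.447 to 1.18. B cell markers went from 0.734 to 0.315 and dendritic cell markers from 0.378 to 0.142. Naive CD4 T cells were 443 of the 3056 WT and 24 of the 477 DTR T cells. The part of these markers and of this mix in the T cell values was not tested.

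In macrophages, which take up and export much cholesterol, Abcg1 was higher in DTR by the mean over cells and Abca1 was not. Abcg1 was at 0.239 in WT and 0.741 in DTR (log2 1.63), from 16 and 117 UMIs, with a summed interval of 0.91 to 2.52. Abca1 was the highest of all classes in both libraries, at 1.64 and 1.33 (log2 -0.30), from 83 and 193 UMIs. At a higher clustering resolution the class fell into clusters of 101 WT and 185 DTR cells and of 19 and 142 cells. In the first, Abca1 had a log2 ratio of means of -0.07 and of summed UMIs of 0.55, with an interval of 0.07 to 1.03, and Abcg1 a ratio of means of 1.46. In the second, Abca1 was at 0.994 and 0.887, with a summed interval of -0.88 to 0.62. Insig1 was at 0.934 and 0.448 (log2 -1.06), from 64 and 56 UMIs, and Idi1 at 0.187 and 0.012, from 15 and 2 UMIs. Sqle had 5 and 1 UMIs and Hmgcs1 16 in each library, too few for a call. Of the 3 members with enough UMIs, 1 was called higher (Abcg1) and 1 lower (Insig1), where 5.49% of 2879 genes were called higher and 3.79% lower. The Insig1 ratio was near the limit and under 2-fold in some settings, such as -0.91 with gates on marker UMIs and -0.80 at resolution 0.4. Srebf2 was at 0.487 and 0.149 (log2 -1.70), Nr1h3 at 0.392 and 0.049 from 13 and 6 UMIs, Cd5l at 1.58 and 4.13 (log2 1.38) and Nceh1, a cholesterol ester hydrolase, at 0.302 and 0.683 (log2 1.18). The median over all tested genes was -0.10 in this class. Macrophage markers summed to 338 in WT and 218 in DTR and neutrophil markers to 0.693 and 11.9, and their part in these values was not tested.

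The order of the Abcg1 levels across these 5 classes differed between the libraries. In WT it was highest in macrophages, then T, B1, B2 and plasma cells, and the intervals of macrophages, T and B1 overlapped, those of T and B1 only at their edges. In DTR the order was macrophage, B1, B2, T and plasma, and neither macrophages and B1 nor B1 and B2 were apart in their intervals. B2 thus stood below T cells in WT and above them in DTR, with the intervals apart in both libraries. Abcg1 was picked for its higher level in DTR B2 cells, so this change of rank is a description. Of the other classes, WT monocytes, NK cells and dendritic cells, at 0.336, 0.252 and 0.244, were above the macrophages, with intervals that overlapped theirs.

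The other leukocytes were described for the same genes where at least 20 UMIs were found. Neutrophils had Abcg1 at 0.117 in WT and 0.428 in DTR (log2 1.87), Abca1 at 0.035 and 0.268 (log2 2.94) from 3 and 62 UMIs, Hmgcs1 at 0.341 and 0.106 (log2 -1.69) and Idi1 at 0.247 and 0.050 (log2 -2.30). Neutrophil precursors had Abcg1 at 0.014 and 0.117 (log2 3.10) and Sqle at 0.177 and 0.027 (log2 -2.69). Dendritic cells had Abcg1 at 0.244 and 0.693 (log2 1.51) and Abca1 at 0.087 and 0.602 (log2 2.79). These Abca1 levels rest on 46 and 23 UMIs in 437 WT and 74 DTR cells, with a log2 ratio of summed UMIs of 2.01. Apoe in dendritic cells was at 8.42 and 58.8, with at most 254 and 587 UMIs in a single cell. The part of macrophage RNA in the dendritic cell values was not tested. Monocytes had Abcg1 at 0.336 and 0.354 (log2 0.08), while Abca1 was at 0.023 and 0.316 (log2 3.80) from 3 and 34 UMIs. In group 2 innate lymphoid cells (ILC2), Abcg1 was at 0.163 and 0.111, from 13 and 7 UMIs, with an interval of its summed ratio from -1.94 to 1.05. The neutrophil class joined a cluster of 55 WT and 478 DTR cells led by genes such as Cxcr2 and Csf3r and one of 186 and 268 cells led by Ltf and Ngp, with a median of 8905 UMIs per cell in WT and 3292 in DTR. Its values therefore compare WT and DTR cells that were spread unevenly over those clusters, and the part of this mix was not tested.

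**Figure D5:**
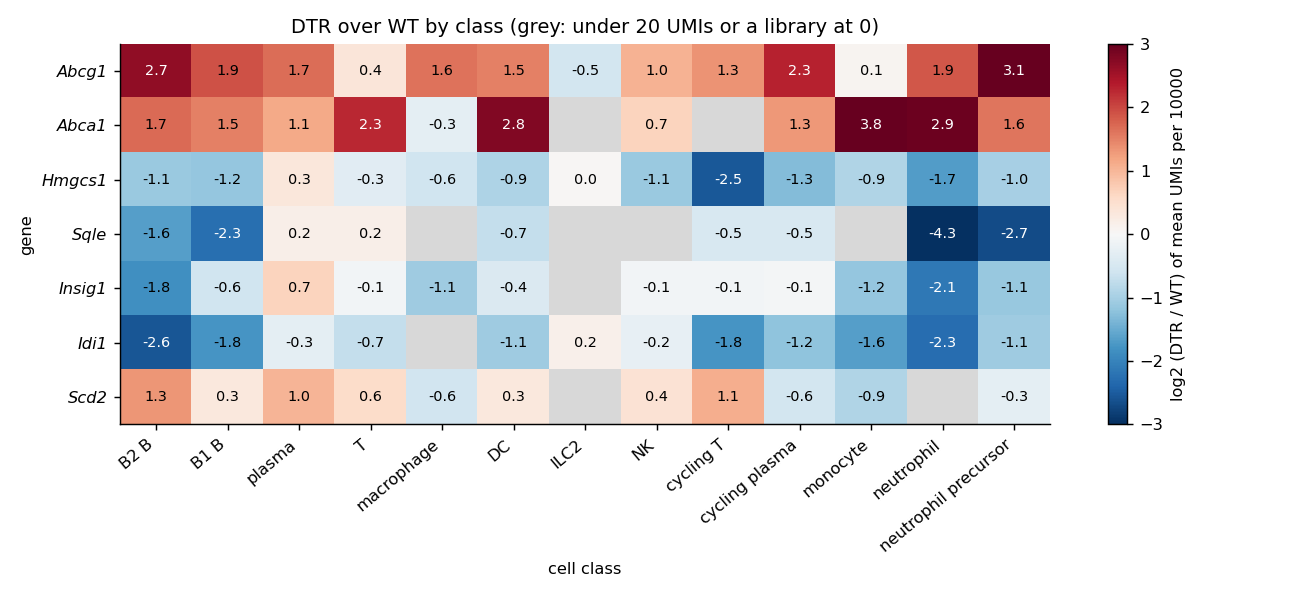
Heat map of the log2 ratio of DTR over WT of mean UMIs per 10000 for the 7 genes (rows) in the cell classes with at least 30 cells in each library (columns), grey where both libraries together hold under 20 UMIs or a library is at 0. Red is higher and blue lower in DTR; Abcg1 is 2.66 in B2 and 0.36 in T cells, and Idi1 is -2.56 in B2 and -0.28 in plasma cells.

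Genes whose levels ran most like those of the members over the 30 class-by-library means were found by Pearson correlation of log2 levels. For Abcg1 they were Cnppd1 (0.82), Stat3 (0.78), Ssh2 (0.78), Ubl3 (0.75) and Tmem189 (0.75), and Abca1 had 0.60 and Fkbp5 0.61. For the mean of Hmgcs1, Sqle, Idi1 and Insig1 Cyp51 (0.77), Msmo1 (0.76), Trappc5 (0.70) and Srebf2 (0.70) were among the 5 most alike. The points share the same libraries, so these values are descriptions.

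Genes induced by glucocorticoids were looked at beside the sterol genes. Fkbp5 was at 0.119 in WT and 1.03 in DTR B2 cells (log2 3.10), 0.091 and 1.03 in B1 (log2 3.51), 0.283 and 0.954 in T cells (log2 1.75), 0.038 and 0.113 in plasma cells (log2 1.58) and 0.062 and 2.25 in macrophages (log2 5.18). Of 8 genes in the glucocorticoid list, 1 of 7 with enough UMIs was called higher in B2, 2 of 6 in B1 and 2 of 7 in plasma cells. In T cells it was 2 of 8 and in macrophages 1 of 6, and none was called lower in any of these classes. Over all tested genes, 1.01%, 1.68%, 3.07%, 1.35% and 5.49% were called higher in B2, B1, plasma, T and macrophage cells. The list's median log2 ratio was 0.47 in B2, 0.85 in B1, -0.04 in plasma cells, 0.71 in T cells and 0.27 in macrophages. Over all tested genes the median was 0.0011, 0.02, 0.04, 0.03 and -0.10, in the same order. All 7 list genes with enough UMIs lay above 0 in B2, all 6 in B1 and all 8 in T cells. In plasma cells 3 of 7 did, and in macrophages 3 of 6. The part of these genes in the sterol values was not tested. Cell cycle genes with enough UMIs were not called in either direction in B2 (2 genes) or B1 (4 genes). All of them lay below 0, with a median log2 ratio of -0.37 in B2 and -0.53 in B1. In T cells 5 of 5 lay above 0 (median 0.58) and in plasma cells 7 of 8 (median 0.29). The 1 gene tested in macrophages was at -0.31. None was called in these classes either, and the part of the cell cycle in the sterol values was not tested.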

How the data were processed

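Leukocytes from the omentum, taken 5 days after DT from WT or Postn-DTR mice, were profiled by droplet single-cell RNA-seq, 1 library of pooled mice per group. Per the labels, reads were processed with Cell Ranger 6.0.0 against mm10. The authors deposited natural log values, the natural log of 1 plus UMIs per 10000, rounded, for 8686 WT and 5736 DTR barcodes. The values were converted back to the linear scale, and UMIs were recovered per cell; 99.97% of WT and 99.91% of DTR values came within 0.1 of a whole number. The libraries held 80152228 and 81010680 UMIs. Of 1078 genes listed by identifier alone, 1060 were given a GENCODE symbol, Sqle among them.

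Cells with 200 to 7500 genes and at most 25% mitochondrial UMIs were kept, normalised with sctransform 0.4.2 and clustered in Seurat 5.3.0 (30 principal components, resolution 0.8) without sterol and lipid genes as features. Clusters were named from marker lists, with the naming thresholds set after the clusters were seen, so the classes may differ from those of the study. Of the cells, 264 WT and 104 DTR were left unnamed. Scrublet (scanpy 1.11.5) marked 2 WT cells (0.0231%) and 103 DTR cells (1.80%), so it did not work on WT, and doublets were kept in the main values.

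The level of a gene was the mean over cells of UMIs per 10000. A gene was called when it had at least 100 UMIs over both libraries of a class and differed 2-fold or more after adding 0.01. Summed UMIs gave exact 95% conditional binomial intervals of the ratio and Poisson intervals of levels. A library at 0 was set at 3 counts over the class. Named genes were the 7 members, up to 5 called genes per class and direction of the wider lists, the 5 genes most alike, and Srebf2, Nr1h2, Nr1h3, Apoe, Fkbp5 and Scd1. Some genes that the rule takes are not reported here. The most alike genes were ranked by Pearson r of log2 levels plus 0.05 over classes of at least 30 cells, among genes with at least 500 UMIs. The code was tested on simulated data. The members and lists were chosen with earlier results of these data known. Alternatives were the level, scaling, depth, doublets, resolution, gates, features, cell filters, single cells and single clusters.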

Additional observations from a re-analysis of the deposited data

Results flagged for a closer look

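Insig1 stood out because its direction was opposite between classes, by the log2 ratio of summed UMIs of DTR over WT. It was 0.54 in plasma cells and -2.12 in B2, a gap of 2.67. Against B1, at -0.72, the gap was 1.26, and against macrophages, at -1.39, it was 1.94. With 1 library per group these differences between classes were not tested. In the plasma cluster with 390 WT and 940 DTR cells the Insig1 log2 ratio of means was 0.23.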

How the results depend on the processing

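No paired analysis was possible because each group had 1 library, and for the same reason no library could be left out. Over the alternatives, the log2 ratio of Abcg1 ranged from 1.81 to 2.91 in B2, 1.34 to 2.33 in B1, 0.83 to 2.05 in plasma cells, -0.46 to 1.08 in T cells and 1.03 to 4.66 in macrophages, and the median of Hmgcs1, Sqle, Idi1 and Insig1 from -2.21 to -1.43 in B2 and -1.65 to -0.95 in B1. Of these Abcg1 values and medians, 136 stayed within the counting interval and 12 moved beyond it. Thinned to 1000 UMIs per cell, Abcg1 was 2.06 in B2, 2.33 in B1 and 0.83 in plasma cells. With gates on marker UMIs in place of clusters it was 1.34 in B1 and 1.28 in plasma cells. In single clusters it was 0.98 in plasma cluster 15, -0.46 and 1.08 in T clusters 6 and 10, and, in alternatives added after the data were seen, 1.96 and 1.81 in B2 clusters 2 and 15 and 4.66 in macrophage cluster 28 at resolution 1.6, where WT had 1 UMI. In the plasma cluster with 390 WT cells alone, the synthesis median was -0.76, beside 0.25 in the whole class. Of the single genes, 2 reversed, with Abca1 at -0.43 in plasma cluster 4 and Scd2 at -0.44 in plasma cluster 15, and 45 of the other values moved. Insig1 in B1, which was not called, ranged from -0.80 to 0.03. With 1.5-fold in place of 2-fold, list genes called higher numbered 7 in B1, 12 in plasma, 4 in T cells and 5 in macrophages, and lower 8 in plasma, 6 in T cells and 2 in macrophages. With at least 30 UMIs, 2 were higher in T cells and 5 lower in macrophages, and with summed UMIs 1 was lower in T cells. These counts are given without the share over all genes at the same settings, so they are not read as a result. The causes of these moves were not tested. Without cells holding at least 2 T cell markers or at least 2 macrophage markers, an alternative also added after the data were seen, Abcg1 in B2 was 2.66. Cells holding neutrophil markers were not left out by it.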
